A study of Mus musculus with 86 samples.

Results

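The comparison described here is that of soleus from mice given resveratrol together with dexamethasone with soleus from mice given dexamethasone alone. Its members were chosen by their labels, the resveratrol group and the vehicle group of the soleus, and are 9 of the 86 libraries of the series. The resveratrol group (RSV) has 5 mice that received dexamethasone (DEX), a synthetic glucocorticoid, at 25 mg/kg each day for 10 days by intraperitoneal injection, each dose followed by resveratrol at 200 mg/kg by gavage in a carboxymethyl cellulose vehicle. The DEX group has 4 mice with the same injections and phosphate buffer by gavage, so that resveratrol and its vehicle cannot be told apart. Further soleus groups served for side comparisons: 19 libraries of mice given DEX and JGT03 or JGT04, hot-water extracts of peony and licorice root, at 100 or 400 mg/kg in the same cellulose vehicle, and 5 libraries of non-treated mice (NT) that had buffer only. JGT02, another extract of the same roots in other proportions, was given with DEX at the same doses and enters the fit with 4 libraries a dose. The protocol describes fewer groups than the samples hold. Whether all extracts were given in the same animal experiment as RSV and DEX is not stated there. All were male C57BL/6N mice, supplied at 10 weeks of age, and mRNA libraries were made from total RNA of the whole frozen muscle. In bulk muscle fewer cells of a type and less RNA per cell cannot be told apart.

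Resveratrol is a plant polyphenol known for raising the activity of the deacetylase SIRT1 and of the energy sensor AMPK, and through them mitochondrial genes in muscle. Glucocorticoids bind their receptor in muscle fibres, induce ubiquitin ligases of the atrophy programme such as those encoded by Fbxo32 and Trim63, and dampen inflammation. The soleus is a postural muscle with many slow, oxidative fibres. Markers of muscle were looked at: the summed level of 10 muscle fibre genes was 78212 to 101159 CPM (counts scaled to library size) in RSV and 61493 to 82651 CPM in DEX soleus, and the slow myosin gene Myh7 was at 7676, 7298, 6422, 6411 and 5666 CPM in RSV mice 1 to 5 and 8318, 8205, 5133 and 4221 CPM in DEX mice 1 to 4. No other muscle stands beside these values, so they do not test the soleus label. These Myh7 values overlapped (log2 fold change 0.05 ± 0.16, adjusted p = 0.83).

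Values below are CPM scaled with TMM factors, and libraries are listed in the order of mice 1 to 5 for RSV, 1 to 4 for DEX and 1 to 5 for NT. Fold changes are log2 of RSV over the group it is set against, ± standard error, and p values are from the edgeR quasi-likelihood test, adjusted by Benjamini-Hochberg over all genes tested, with 0.05 as the threshold. RSV against DEX soleus called 5390 of 14696 genes, 36.7%, of which 2396 were higher (16.3%) and 2994 lower (20.4%), and the median log2 fold change over all genes was -0.03. Over 1 on the log2 scale lay 75 of the higher and 585 of the lower genes. RSV and DEX libraries did not overlap for 2652 genes, 18% of those tested. The spread was estimated over 41 soleus libraries; a fit of the 9 libraries alone called 951 higher and 1365 lower genes.

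DEX mouse 4 stood apart from DEX mice 1 to 3 in macrophage markers, 16 genes whose sum was 506 CPM in that mouse, 54.05 to 85.2 CPM in the other 3 DEX mice and 35.8 to 78.0 CPM in RSV mice. Its median correlation with its own group was 0.965, where DEX mice 1 to 3 had 0.991 to 0.992. Other lists stood apart too. Genes of developing fibres summed to 930 CPM, against 158 to 274 CPM in DEX mice 1 to 3. Genes of fatty acid use summed to 7019 CPM, against 11241 to 11768 CPM, and nuclear genes of oxidative phosphorylation to 19825 CPM, against 27108 to 29552 CPM. Endothelial markers, at 940 CPM, lay within the 813 to 1060 CPM of those 3 mice. Without DEX mouse 4 the test called 3500 genes (23.7%), 1586 higher and 1914 lower, and 305 of them were over 1 on the log2 scale, 51 higher and 254 lower. Of the 5390 genes, 3111 were called in the same direction in both fits and 2279 were not, the lost ones with a median size of 0.36. In addition, in the listed order of the libraries the DEX and NT libraries belong to an earlier and the RSV, JGT03 and JGT04 libraries to a later set. The labels, which name 1 batch, do not give this division. Its place in the order was taken from earlier results of these data. It runs through the JGT02 400 mg/kg group, where the transcription factor gene Cebpb was at 17.8 and 15.3 CPM in mice 4 and 5, of the later set, and at 28.4 and 35.8 CPM in mice 2 and 3, of the earlier set. Treatment and set cannot be told apart between RSV and DEX except through those 4 libraries. In a fit that includes the set 91.3% of the 5390 genes kept their sign, their median size was 0.24 in place of 0.42 and their median standard error 0.19 in place of 0.11. Of 14696 genes, 2 then passed (0.0136%), 1 in each direction (0.0068% each), and no member of any of the 42 gene lists used below passed. The set itself, later minus earlier, was called for 66 genes (0.449%), 8 higher (0.0544%) and 58 lower (0.395%). Because the division came from these data, such calls do not test it. Cebpb was not among them (set value -0.96 ± 0.29, edgeR adjusted p = 0.14). Art5 and Actg2, both described below, were (set values 0.59 ± 0.13, edgeR adjusted p = 0.026, and -4.45 ± 0.65, edgeR adjusted p = 0.00033). Directions and counts are therefore those of RSV libraries against DEX libraries, and the set-term median stands beside most lists described. Every list count below is to be read beside the shares of all genes, 16.3% higher and 20.4% lower. Without DEX mouse 4 these shares were 10.7% and 12.9%.

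The gene lower in RSV under both fits was Gpr56 (chr8:94974751-95014217 on GRCm38, protein coding, now named Adgrg1), which encodes an adhesion G protein-coupled receptor that has been tied to muscle growth. It was at 15.4, 15.3, 15.4, 13.5 and 20.1 CPM in RSV mice and 28.1, 30.1, 37.02 and 42.0 CPM in DEX mice. Every RSV library lay below every DEX library (log2 fold change -1.11 ± 0.10, adjusted p = 3.2e-09, and -1.10 ± 0.18 with the set term, adjusted p = 0.010), and also below the NT libraries at 21.5 to 27.4 CPM. The JGT02 400 mg/kg libraries on either side of the division had 16.01, 16.6, 15.95 and 16.6 CPM. JGT02 100 mg/kg libraries, of the earlier set, had 17.3 to 19.5 CPM, and JGT03 and JGT04 libraries 13.1 to 23.4 CPM. All extract libraries thus lay below the DEX libraries too, and the low level was not particular to RSV. The gene higher with the set term, Actg2, a smooth muscle actin, was at 1.29, 0.784, 0.890, 1.19 and 1.12 CPM in RSV and 0.795, 1.39, 1.82 and 1.11 CPM in DEX libraries, which overlap (log2 fold change -0.29 ± 0.64, adjusted p = 0.75). Its set-term value was 4.16. JGT02 400 mg/kg mouse 2 was at 23.6 CPM, where mice 3 to 5 of that group had 0.494 to 0.978 CPM. Both genes were named after their values were seen.

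**Figure D1:**
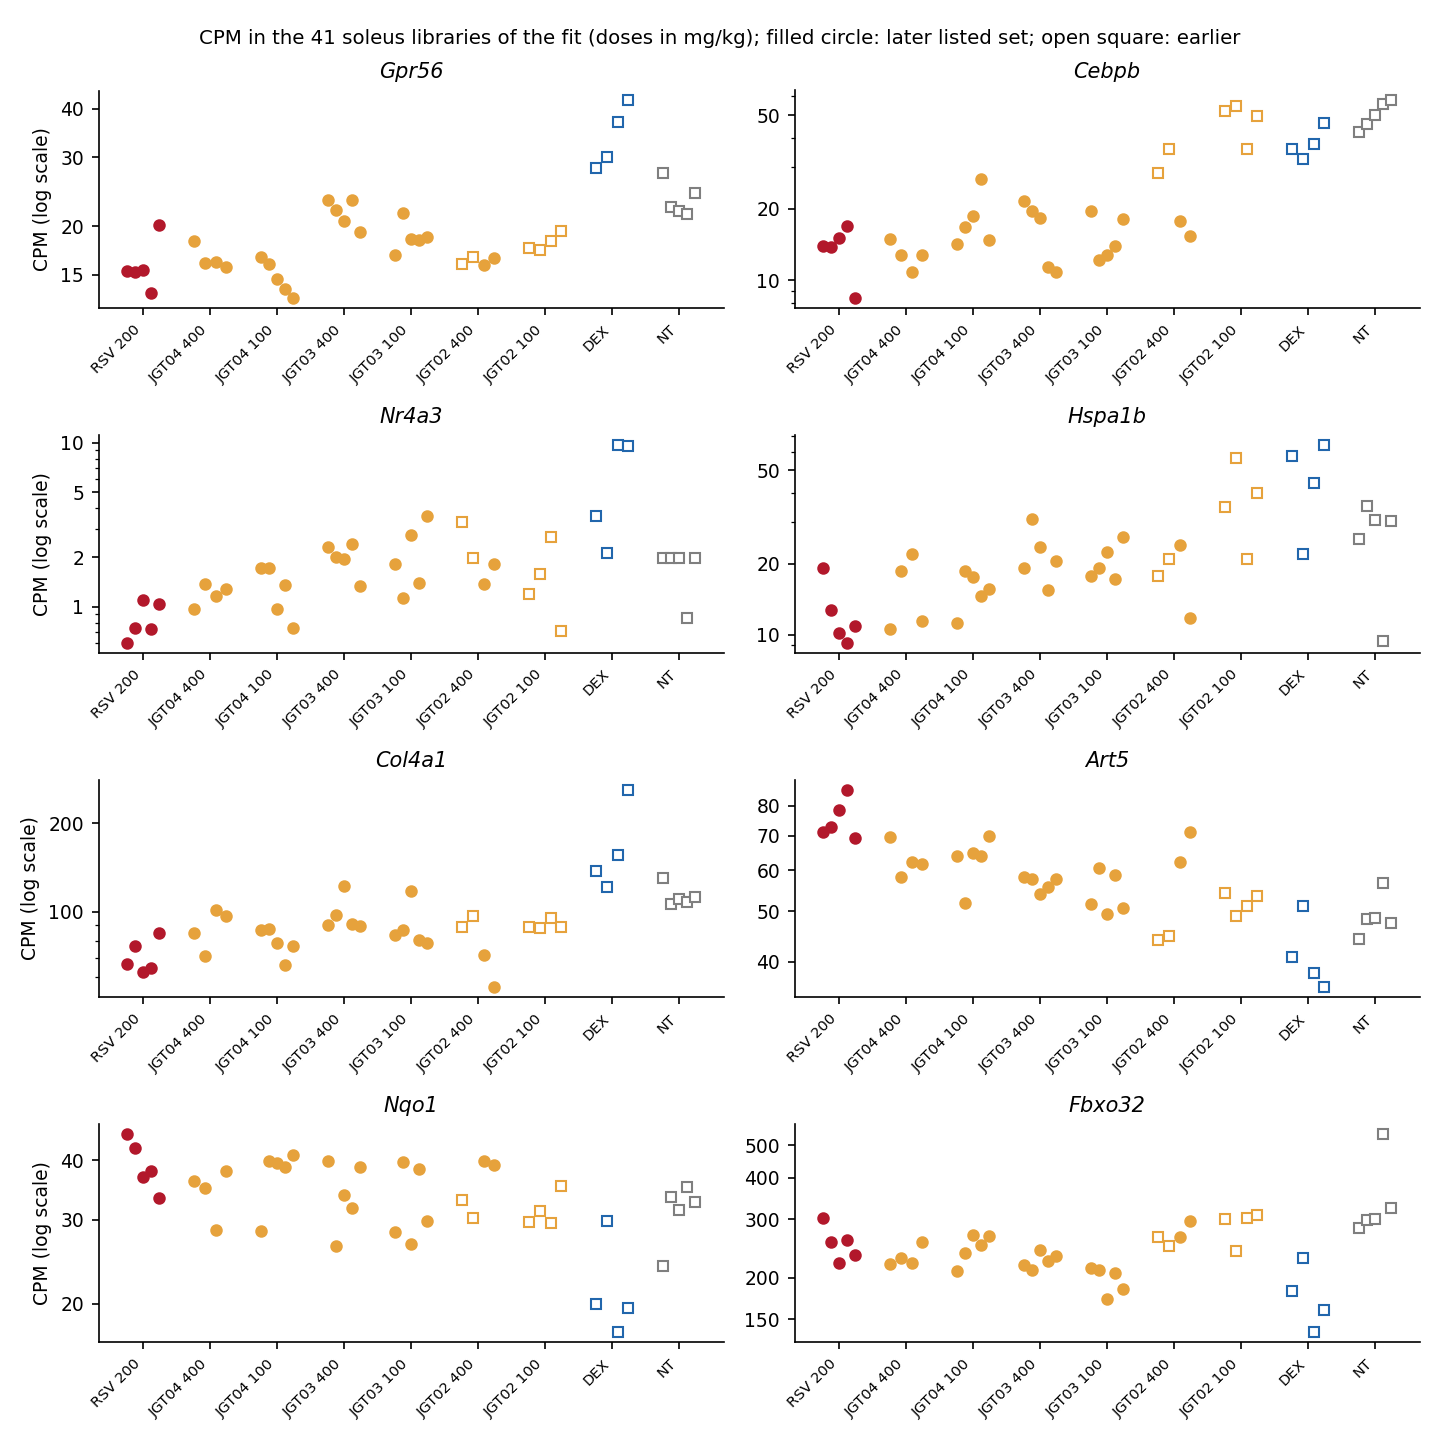
CPM on a log scale of 8 genes in the 41 soleus libraries of the fit, by group with doses in mg/kg; filled circles are libraries of the later and open squares of the earlier listed set. Gpr56 is lower in RSV, and in every extract group, than in DEX. It does not move across the division within JGT02 400 mg/kg, where Cebpb is at 17.8 and 15.3 CPM on the later and 28.4 and 35.8 CPM on the earlier side. Art5 is there at 62.3 and 71.3 CPM on the later and 44.0 and 44.8 CPM on the earlier side.

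Genes of oxidative metabolism were higher in RSV soleus. Of 62 tested nuclear genes of oxidative phosphorylation, the respiratory chain that makes ATP from oxygen, 37 rose and 0 fell, with a median log2 fold change of 0.31, against 16.3% of all genes higher and a median of -0.03. Without DEX mouse 4, 14 rose, 0 fell and the median was 0.17, and with the set term it was 0.03. Ndufa9, a subunit of complex I, was at 319.7, 321, 377, 375 and 313 CPM in RSV and 243, 263, 252 and 166 CPM in DEX libraries. All RSV libraries were above all DEX libraries, and DEX mouse 4 was the lowest (log2 fold change 0.56 ± 0.11, adjusted p = 0.00014, and 0.43 without DEX mouse 4, adjusted p = 0.0018). Another complex I subunit, Ndufv1, was at 388 to 492 CPM in RSV and 217 to 348 CPM in DEX libraries (log2 fold change 0.50 ± 0.11, adjusted p = 0.00062). Sdhc, an anchor subunit of complex II, was at 313 to 391 CPM in RSV and 178 to 289 CPM in DEX libraries, again without overlap (log2 fold change 0.51 ± 0.10, adjusted p = 0.00015). Tfam, which packages and transcribes mitochondrial DNA, was at 25.8, 25.4, 28.3, 26.8 and 23.8 CPM in RSV and 22.2, 21.7, 20.3 and 21.4 CPM in DEX libraries, with no overlap (log2 fold change 0.28 ± 0.06, adjusted p = 0.00026).

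Of 35 fatty acid use genes, 20 rose and 2 fell, with a median of 0.36. With DEX mouse 4 left out it was 11 and 1 with 0.22, and the set-term median was 0.33. Slc25a20, the carrier that brings acylcarnitines into mitochondria, was at 151, 124, 142, 143 and 114 CPM in RSV and 104, 108, 102 and 76.9 CPM in DEX libraries (log2 fold change 0.47 ± 0.09, adjusted p = 0.00014). Its RSV values were all above its DEX values. Hadhb, the thiolase subunit of the trifunctional protein of beta-oxidation, was at 535 to 729.7 CPM in RSV and 347 to 536 CPM in DEX libraries (log2 fold change 0.50 ± 0.10, adjusted p = 0.00021). Acads, the short-chain acyl-CoA dehydrogenase, was at 58.8 to 82.3 CPM in RSV and 35.2 to 60.6 CPM in DEX libraries (log2 fold change 0.51 ± 0.10, adjusted p = 0.00030). For both, the lowest RSV library, mouse 5, overlapped the DEX range. Cpt1a, the liver-type gatekeeper of mitochondrial fatty acid entry, fell (log2 fold change -0.51 ± 0.16, adjusted p = 0.011), a call not kept without DEX mouse 4 (-0.35, adjusted p = 0.11).

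Of 30 glycolysis and glycogen genes, 9 rose and 3 fell, with a median of 0.16, and without DEX mouse 4 the counts were 5 and 3. All genes had 16.3% higher and 20.4% lower. The set-term median was 0.10. Both enzymes that start and extend glycogen rose. Gyg, glycogenin, was at 665, 691, 699, 636 and 562 CPM in RSV and 482, 521, 409.5 and 311 CPM in DEX libraries, which did not overlap (log2 fold change 0.59 ± 0.10, adjusted p = 3.7e-05). Gys1, muscle glycogen synthase, was at 376 to 617 CPM in RSV and 251 to 401 CPM in DEX libraries, with RSV mouse 5 inside the DEX range (log2 fold change 0.56 ± 0.11, adjusted p = 0.00029). Pfkfb1, a kinase and phosphatase that sets the level of a glycolysis activator, was at 19.96 to 23.9 CPM in RSV and 8.599 to 15.6 CPM in DEX libraries (log2 fold change 0.81 ± 0.12, adjusted p = 1.3e-05). Hk1, the hexokinase common to most cells, and Slc2a1, the basal glucose transporter, fell. Hk1 was at 9.25, 11.1, 9.70, 9.75 and 11.7 CPM in RSV and 13.6, 14.5, 17.3 and 23.8 CPM in DEX libraries, without overlap (log2 fold change -0.75 ± 0.11, adjusted p = 4.6e-06). Slc2a1 was at 10.8 to 12.96 CPM in RSV and 13.03 to 32.1 CPM in DEX libraries (log2 fold change -0.82 ± 0.16, adjusted p = 0.00014).

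**Figure D2:**
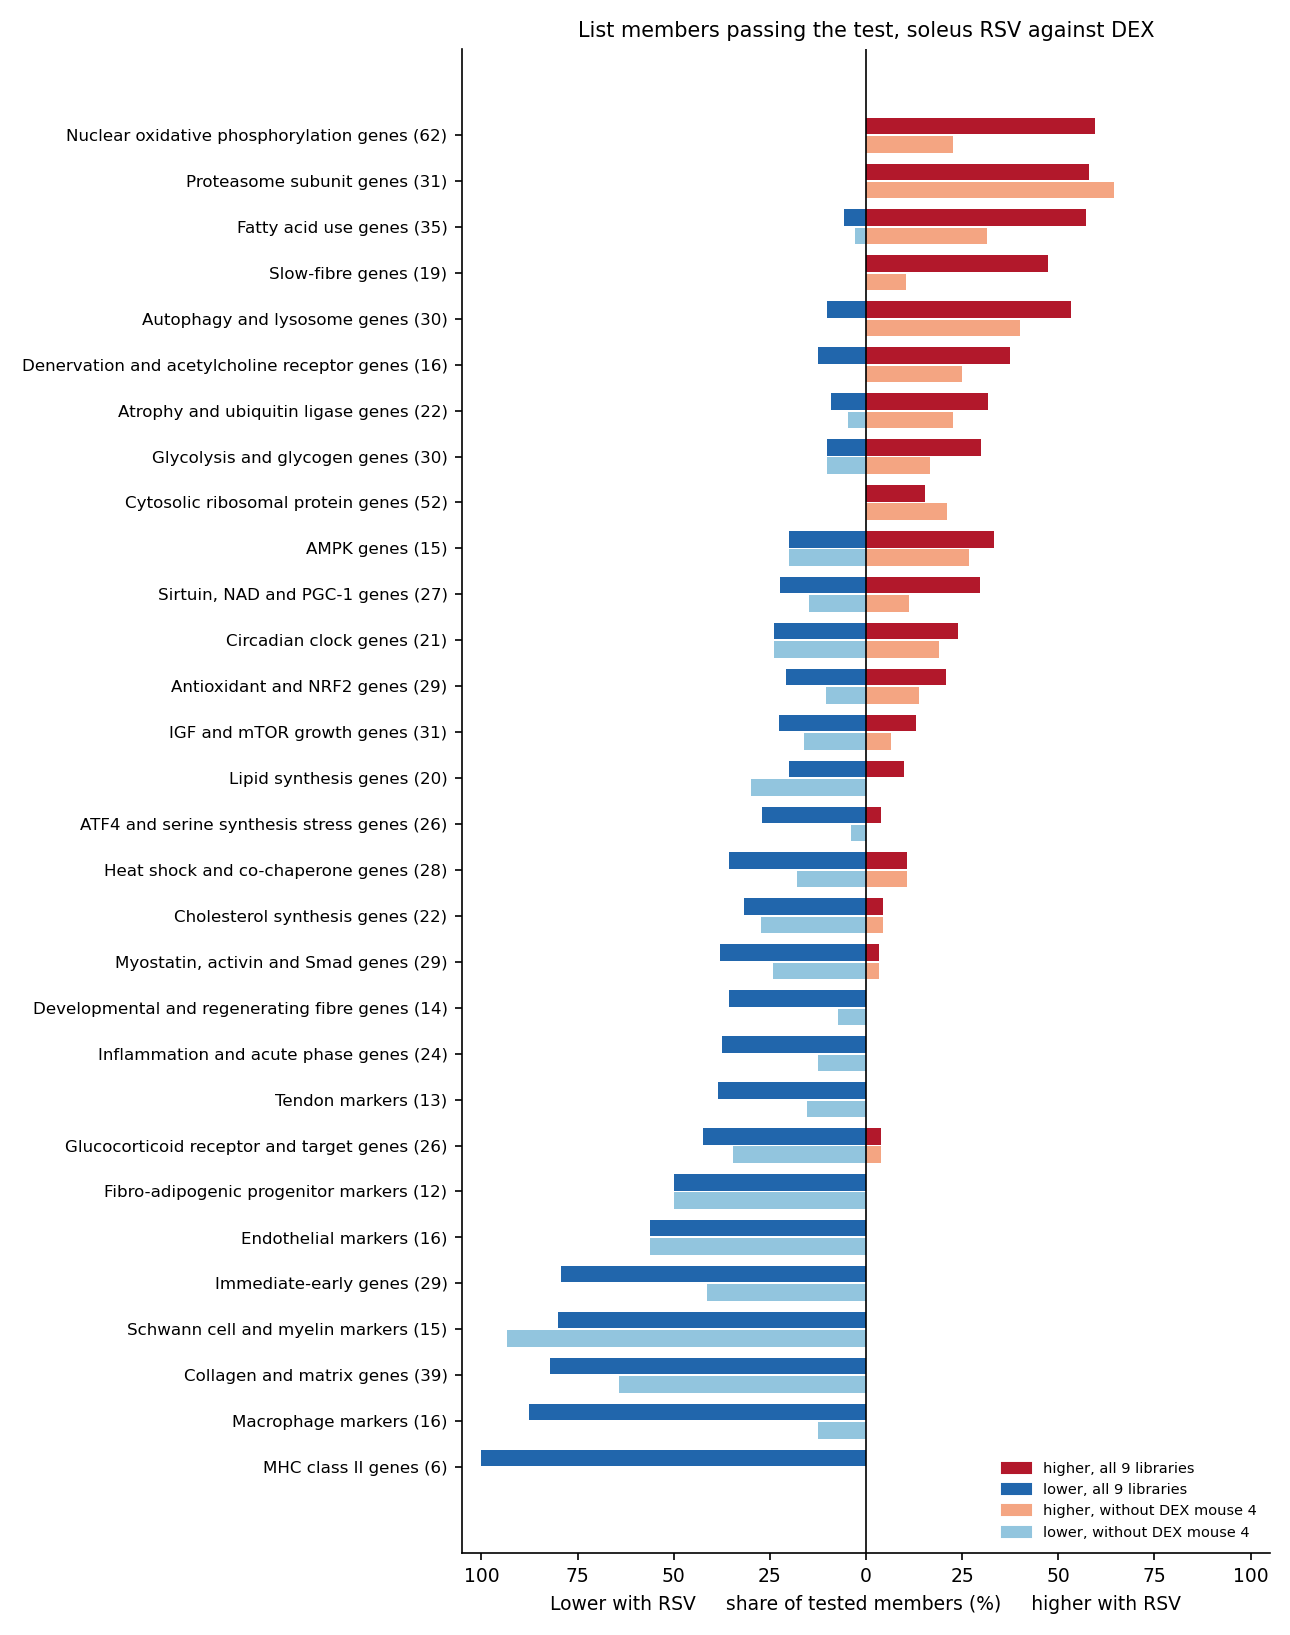
Share of the tested members of each gene list that passed the test in RSV against DEX soleus, higher to the right and lower to the left, for all 9 libraries (dark) and without DEX mouse 4 (light); the number tested stands beside the list. Shown are lists with at least 6 tested and 5 called members. Macrophage markers have 14 lower, against 2 without DEX mouse 4, and proteasome genes have 18 higher, against 20.

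Protein breakdown genes rose as well. Of 31 proteasome subunit genes 18 rose and 0 fell, with a median of 0.22. Without DEX mouse 4 it was 20 and 0 with the same median, and the set-term median was 0.08. Psmb7, a catalytic core subunit, was at 204, 210.5, 249, 204 and 188 CPM in RSV and 145, 163.02, 138 and 132 CPM in DEX libraries (log2 fold change 0.55 ± 0.09, adjusted p = 3.2e-05). Psma6, a subunit of the outer ring, was at 117 to 134 CPM in RSV and 93.9 to 104 CPM in DEX libraries (log2 fold change 0.36 ± 0.07, adjusted p = 0.00013). Neither gene overlapped between the groups. Psmd2, of the regulatory particle, was at 239, 237, 257, 233.5 and 213 CPM in RSV and 193, 183, 157 and 180.4 CPM in DEX libraries, also without overlap (log2 fold change 0.40 ± 0.06, adjusted p = 2.1e-05). Of its 31-base words 31.6% recur elsewhere, mostly in the predicted gene Gm5422, so that reads may be split. Of 30 autophagy and lysosome genes 16 rose and 3 fell (median 0.21), against 12 and 0 without DEX mouse 4, and the set-term median was 0.12. Map1lc3a, which coats the autophagosome membrane, was at 303, 296, 304, 293 and 305 CPM in RSV and 232, 214, 207 and 185 CPM in DEX libraries, a clear gap (log2 fold change 0.52 ± 0.10, adjusted p = 0.00012, and 0.10 with the set term). Hexa, a lysosomal hexosaminidase subunit, was at 53.7 to 63.01 CPM in RSV and 42.4 to 48.2 CPM in DEX libraries (log2 fold change 0.35 ± 0.06, adjusted p = 8.5e-05). Ctsd, the lysosomal protease cathepsin D, was at 436 to 651 CPM in RSV and 378 to 470.5 CPM in DEX libraries (log2 fold change 0.43 ± 0.08, adjusted p = 0.00016).

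The atrophy and ubiquitin ligase list, 22 genes, had 7 rises and 2 falls, with a median of 0.13, and 5 and 1 without DEX mouse 4. Among all genes 16.3% were higher and 20.4% lower. Fbxo32 (chr15:58175879-58214932), the ligase atrogin-1, was at 303, 255, 221, 259.9 and 234 CPM in RSV and 182, 229, 137 and 159.7 CPM in DEX libraries. It was higher in RSV, where mouse 3 overlapped DEX mouse 2 (log2 fold change 0.52 ± 0.14, adjusted p = 0.0030). The DEX libraries were not raised for Fbxo32: all lay below the NT libraries, at 283 to 540.0 CPM. Trim63, the ligase MuRF1, was at 109, 98.6, 97.1, 99.7 and 83.8 CPM in RSV and 97.9, 75.9, 94.6 and 122 CPM in DEX libraries, which overlapped throughout (log2 fold change -0.001 ± 0.09, adjusted p = 0.99). Ubr2, a ligase of the N-end rule, was at 69.9, 71.6, 72.4, 70.4 and 68.2 CPM in RSV and 59.1, 59.4, 60.2 and 50.6 CPM in DEX libraries, without overlap (log2 fold change 0.30 ± 0.06, adjusted p = 0.00019). Fbxo31, a cyclin-directed F-box protein, was at 112 to 140.4 CPM in RSV and 82.8 to 108 CPM in DEX libraries (log2 fold change 0.43 ± 0.10, adjusted p = 0.0012). Mul1, a mitochondrial ligase, was at 29.1 to 33.8 CPM in RSV and 22.1 to 29.2 CPM in DEX libraries (log2 fold change 0.26 ± 0.06, adjusted p = 0.0022). Mdm2, the ligase for p53, fell (log2 fold change -0.27 ± 0.07, adjusted p = 0.0020). The forkhead genes that drive the programme did not pass: Foxo1 was at 23.7 to 26.1 CPM in RSV and 23.7 to 31.4 CPM in DEX libraries (adjusted p = 0.27). Foxo3 was at 20.1 to 28.5 CPM in RSV and 17.6 to 28.1 CPM in DEX libraries (adjusted p = 0.50).

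Slow-fibre genes leaned on DEX mouse 4. Of 19, 9 rose and 0 fell (median 0.33), against 2 and 0 without that mouse (median 0.21), and the set-term median was 0.11. Tnni1, slow troponin I, was at 1745, 1694, 1523, 1609.9 and 1532 CPM in RSV and 1331, 1331, 955 and 742 CPM in DEX libraries, without overlap (log2 fold change 0.57 ± 0.17, adjusted p = 0.0076), but did not pass without DEX mouse 4 (0.42, adjusted p = 0.063). Casq2, the calcium store protein of slow fibres, was at 218 to 319 CPM in RSV and 120.0 to 238 CPM in DEX libraries (log2 fold change 0.52 ± 0.13, adjusted p = 0.0023). Among 20 fast-fibre genes 1 rose and 0 fell, Mylk2, the kinase of the myosin light chain. It was at 402, 475, 492, 467 and 414 CPM in RSV and 293, 310.2, 246 and 247 CPM in DEX libraries, far apart (log2 fold change 0.72 ± 0.11, adjusted p = 7.9e-06, and 0.57 ± 0.19 with the set term, adjusted p = 0.30). The fast myosins overlapped between the groups. Myh2 was at 4298 to 6514 CPM in RSV and 2976 to 5825 CPM in DEX libraries (adjusted p = 0.40), Myh1 at 2039 to 4623 CPM in RSV and 2442 to 3274 CPM in DEX libraries (adjusted p = 0.78). Myh4 was at 19.8 to 1323 CPM in RSV and 773 to 1952 CPM in DEX libraries (adjusted p = 0.35). Of 16 denervation genes 6 rose and 2 fell, against 16.3% and 20.4% of all genes, with a median of 0.12 and a set-term median of -0.01. Chrna1, the alpha subunit of the acetylcholine receptor, was at 52.1, 45.6, 41.5, 48.8 and 46.6 CPM in RSV and 39.3, 35.9, 35.6 and 36.003 CPM in DEX libraries (log2 fold change 0.36 ± 0.11, adjusted p = 0.0096). Hdac4, a deacetylase that links nerve activity to muscle genes, was at 29.7 to 38.97 CPM in RSV and 22.96 to 25.6 CPM in DEX libraries (log2 fold change 0.43 ± 0.11, adjusted p = 0.0018). Both were above DEX in every RSV library. With the set term the value of Chrna1 was -0.02.

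The pathways for which resveratrol is known had members on both sides, as had all genes (16.3% higher and 20.4% lower). Of 27 sirtuin, NAD and PGC-1 genes 8 rose and 6 fell, with a median of 0.04. Sirt1, the deacetylase itself, was at 8.52, 10.2, 8.25, 10.4 and 11.1 CPM in RSV and 10.6, 13.4, 12.1 and 14.5 CPM in DEX libraries. It was lower in RSV, with RSV mouse 5 above DEX mouse 1 (log2 fold change -0.39 ± 0.10, adjusted p = 0.0037, and -0.25 with the set term). Sirt3, the mitochondrial deacetylase, was at 16.5, 14.8, 16.9, 19.2 and 16.2 CPM in RSV and 12.5, 12.9, 14.6 and 9.55 CPM in DEX libraries, without overlap (log2 fold change 0.43 ± 0.12, adjusted p = 0.0040). Nmnat3, a mitochondrial enzyme of NAD synthesis, was at 9.57 to 11.3 CPM in RSV and 7.21 to 8.67 CPM in DEX libraries (log2 fold change 0.44 ± 0.09, adjusted p = 0.00023). Nadk, which turns NAD into NADP, was at 19.3 to 25.4 CPM in RSV and 26.2 to 35.7 CPM in DEX libraries and fell (log2 fold change -0.48 ± 0.10, adjusted p = 0.00023). Nmrk2, the muscle nicotinamide riboside kinase, was at 22.3, 13.4, 27.8, 24.7 and 21.3 CPM in RSV and 51.3, 43.7, 38.3 and 195 CPM in DEX libraries, with DEX mouse 4 far above the rest (log2 fold change -1.91 ± 0.33, adjusted p = 5.4e-05, and -1.02 without DEX mouse 4, adjusted p = 0.0043). Ppargc1a, the coactivator PGC-1 alpha, was at 20.5, 18.999, 18.5, 16.7 and 15.8 CPM in RSV and 22.5, 20.7, 33.5 and 11.5 CPM in DEX libraries, which overlapped (log2 fold change -0.29 ± 0.16, adjusted p = 0.16), while without DEX mouse 4, its lowest library, it was lower in RSV (-0.51, adjusted p = 0.0073). Nampt, the rate-limiting enzyme of NAD salvage, had log2 fold change 0.17 ± 0.07, adjusted p = 0.045, and did not pass without any of DEX mice 1, 3 and 4 or RSV mice 1, 2 and 4, the values then being 0.14 to 0.18.

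Of 15 AMPK genes 5 rose and 3 fell, beside 16.3% higher and 20.4% lower among all genes. The catalytic subunit gene Prkaa1 was at 15.7, 15.2, 15.6, 15.8 and 16.3 CPM in RSV and 18.6, 18.3, 17.3 and 26.3 CPM in DEX libraries and fell (log2 fold change -0.36 ± 0.09, adjusted p = 0.0018). Strada, a partner of the upstream kinase LKB1, was at 10.2 to 12.8 CPM in RSV and 7.52 to 9.98 CPM in DEX libraries and rose (log2 fold change 0.38 ± 0.09, adjusted p = 0.0014), as did the regulatory subunit gene Prkag1 (log2 fold change 0.32 ± 0.08, adjusted p = 0.0036), whose set-term value was -0.05. Antioxidant and NRF2 genes, 29 in all, had 6 rises and 6 falls, near the shares of all genes. Nqo1 (chr8:107388225-107403206), a quinone reductase and a standard NRF2 target, was at 45.4, 42.4, 36.96, 38.05 and 33.3 CPM in RSV and 19.98, 29.8, 17.4 and 19.5 CPM in DEX libraries, with every RSV library above the DEX range (log2 fold change 0.86 ± 0.14, adjusted p = 3.9e-05, and 0.54 ± 0.25 with the set term, adjusted p = 0.47). The mitochondrial peroxidase gene Prdx3 was at 162.9 to 196 CPM in RSV and 114 to 145 CPM in DEX libraries (log2 fold change 0.42 ± 0.07, adjusted p = 2.3e-05). Prdx6, a peroxidase of the cytosol, was at 153 to 173 CPM in RSV and 123 to 138 CPM in DEX libraries (log2 fold change 0.35 ± 0.07, adjusted p = 0.00014). Neither overlapped. Txnrd1, thioredoxin reductase and another NRF2 target, fell (log2 fold change -0.30 ± 0.08, adjusted p = 0.0022). Hmox1, heme oxygenase, was at 3.44, 3.43, 3.64, 3.504 and 3.98 CPM in RSV and 3.18, 3.40, 4.69 and 21.3 CPM in DEX libraries, and its fall (log2 fold change -1.19 ± 0.32, adjusted p = 0.0040) was not called without DEX mouse 4 (-0.07, adjusted p = 0.83). Of 12 genes of the aryl hydrocarbon receptor group 1 rose and 3 fell. Ahr, the receptor, was at 5.16, 5.97, 5.94, 5.88 and 8.86 CPM in RSV and 9.35, 10.7, 8.64 and 8.26 CPM in DEX libraries, with RSV mouse 5 inside the DEX range (log2 fold change -0.53 ± 0.14, adjusted p = 0.0032). Cyp1b1, a cytochrome it induces, was at 0.323 to 0.559 CPM in RSV and 0.803 to 2.44 CPM in DEX libraries (log2 fold change -1.58 ± 0.46, adjusted p = 0.0077), with a set-term value of 0.15 and -1.18 (adjusted p = 0.057) without DEX mouse 1.

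Among 26 genes of the glucocorticoid receptor and its targets, 1 rose and 11 fell (median -0.28), against 1 and 9 without DEX mouse 4; the set-term median was -0.03. The riser was Tsc22d3, the anti-inflammatory leucine zipper GILZ, at 51.1, 55.4, 54.1, 55.6 and 39.9 CPM in RSV and 39.3, 38.8, 40.3 and 38.3 CPM in DEX libraries (log2 fold change 0.39 ± 0.09, adjusted p = 0.0016). RSV mouse 5 overlapped the DEX range. Fkbp5, a co-chaperone that restrains the receptor, was at 33.6, 32.4, 28.6, 27.8 and 29.9 CPM in RSV and 46.5, 34.5, 35.4 and 44.8 CPM in DEX libraries, all lower (log2 fold change -0.40 ± 0.11, adjusted p = 0.0044). Cebpb (chr2:167688915-167690418) was at 13.98, 13.8, 15.1, 16.9 and 8.38 CPM in RSV and 35.8, 32.6, 37.7 and 46.3 CPM in DEX libraries. Its RSV values were all below its DEX values (log2 fold change -1.48 ± 0.22, adjusted p = 6.9e-06), but the set-term value was -0.53 (adjusted p = 0.63), and its exons lie over exons of Tmem189 on the opposite strand, so that reads of both would merge in unstranded counting. Klf15, a glucocorticoid-induced factor that switches muscle to amino acid and lipid use, was at 19.4 to 24.9 CPM in RSV and 12.5 to 23.3 CPM in DEX libraries (log2 fold change 0.27 ± 0.12, adjusted p = 0.065). Pdk4, the kinase that shuts pyruvate dehydrogenase, was at 69.7 to 181 CPM in RSV and 64.1 to 206 CPM in DEX libraries (log2 fold change -0.55 ± 0.37, adjusted p = 0.25). Both overlapped between the groups and did not pass, though Klf15 did without DEX mouse 1 (0.39, adjusted p = 0.013), DEX mouse 3 (0.33, adjusted p = 0.048) or RSV mouse 5 (0.32, adjusted p = 0.033).

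Mt1 and Mt2, neighbouring genes that encode the metal-binding metallothioneins and are induced by zinc, copper and glucocorticoids, were spread widely. Mt2 (chr8:94172664-94173568) was at 5.20, 5.45, 3.56, 5.06 and 6.93 CPM in RSV and 14.02, 7.73, 11.9 and 258 CPM in DEX libraries. Mt1 (chr8:94179082-94180327) was at 29.4, 29.2, 22.4, 24.99 and 33.8 CPM in RSV and 41.9, 30.2, 53.6 and 313 CPM in DEX libraries. DEX mouse 4 was far above all others for both. Mt2 had log2 fold change -3.80 ± 0.66, adjusted p = 5.1e-05, and Mt1 had log2 fold change -1.98 ± 0.36, adjusted p = 0.00011. Without DEX mouse 4 they were -1.10 (adjusted p = 0.064) and -0.59 (adjusted p = 0.031). The 250 bases before each start (RefSeq, GRCm38.p6, plus strand, 5′ to 3′) are shown because both genes move together and metal response elements stand there. Capitals mark matches to TGCACNC or TGCGCNC on either strand. Mt1 has 1 and Mt2 has 3, and 21.4% of 32851 windows of the same length hold at least 1.
Mt1, chr8:94178839-94179088: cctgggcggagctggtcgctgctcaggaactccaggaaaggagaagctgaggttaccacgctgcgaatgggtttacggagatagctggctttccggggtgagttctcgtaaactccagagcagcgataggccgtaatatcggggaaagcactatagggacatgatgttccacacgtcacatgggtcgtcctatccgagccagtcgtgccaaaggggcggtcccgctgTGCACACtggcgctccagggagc
Mt2, chr8:94172368-94172617: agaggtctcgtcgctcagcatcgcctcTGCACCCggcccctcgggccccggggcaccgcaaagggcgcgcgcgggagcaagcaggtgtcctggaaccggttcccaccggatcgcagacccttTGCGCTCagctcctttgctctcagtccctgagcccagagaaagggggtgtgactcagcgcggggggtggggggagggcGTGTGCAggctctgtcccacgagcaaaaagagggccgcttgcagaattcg

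Clock genes, 21 in all, had 5 rises and 5 falls, not far from the shares of all genes (16.3% higher and 20.4% lower). Clock, the activator that pairs with the product of Arntl, was at 14.6, 15.2, 12.7, 12.9 and 14.1 CPM in RSV and 22.5, 20.7, 18.9 and 23.2 CPM in DEX libraries, without overlap (log2 fold change -0.62 ± 0.09, adjusted p = 7.6e-06). Arntl was at 2.02, 1.98, 1.66, 1.79 and 1.38 CPM in RSV and 3.33, 2.23, 2.05 and 3.52 CPM in DEX libraries (log2 fold change -0.65 ± 0.20, adjusted p = 0.0091), and did not pass without DEX mouse 4 (adjusted p = 0.073). Nr1d1, the repressor REV-ERB alpha, was at 97.7 to 137 CPM in RSV and 138 to 196 CPM in DEX libraries and fell (log2 fold change -0.51 ± 0.13, adjusted p = 0.0021). Tef, a clock output factor, was at 224 to 249 CPM in RSV and 137 to 186 CPM in DEX libraries (log2 fold change 0.51 ± 0.10, adjusted p = 0.00014). Cry2, a repressor of the loop, was at 46.5 to 53.9 CPM in RSV and 30.6 to 46.2 CPM in DEX libraries (log2 fold change 0.37 ± 0.09, adjusted p = 0.0012). Per2, another repressor, overlapped at 14.4 to 22.5 CPM in RSV and 13.3 to 22.4 CPM in DEX libraries (adjusted p = 0.33, and 0.024 without DEX mouse 3, at a log2 fold change of 0.35).

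Of 31 IGF and mTOR genes 4 rose and 7 fell, shares near those of all genes (16.3% higher and 20.4% lower). Mtor, the kinase that drives protein synthesis, was at 41.9, 39.2, 42.5, 40.7 and 34.7 CPM in RSV and 33.7, 32.4, 32.03 and 31.03 CPM in DEX libraries, all higher (log2 fold change 0.30 ± 0.06, adjusted p = 0.00031, and 0.35 with the set term). Igf1, the local growth factor, was at 11.9, 15.3, 9.38, 13.6 and 12.6 CPM in RSV and 24.6, 18.95, 26.9 and 13.5 CPM in DEX libraries, with DEX mouse 4 inside the RSV range (log2 fold change -0.74 ± 0.26, adjusted p = 0.027). Its call was lost without DEX mouse 1 or 3 and without RSV mouse 1 or 3 (-0.65, -0.59, -0.72 and -0.65), and its set-term value was 0.22. Of 29 myostatin, activin and Smad genes 1 rose and 11 fell (median -0.24), against 1 and 7 without DEX mouse 4, and the set-term median was -0.05. The riser was Acvr1b, an activin and myostatin receptor, at 22.3, 25.1, 22.8, 23.2 and 20.03 CPM in RSV and 15.7, 16.4, 15.3 and 16.4 CPM in DEX libraries, without overlap (log2 fold change 0.51 ± 0.14, adjusted p = 0.0043). Smad7, which blocks the pathway, was at 7.96, 8.73, 7.84, 8.43 and 8.49 CPM in RSV and 9.44, 11.98, 15.5 and 9.98 CPM in DEX libraries, all lower (log2 fold change -0.50 ± 0.10, adjusted p = 0.00038, and -0.51 with the set term). Tgfb1, the TGF-beta ligand, was at 7.76 to 11.2 CPM in RSV and 10.8 to 25.9 CPM in DEX libraries (log2 fold change -0.82 ± 0.15, adjusted p = 0.00011). Fstl3, a secreted inhibitor of myostatin, was at 1.78 to 2.35 CPM in RSV and 2.10 to 5.85 CPM in DEX libraries (log2 fold change -0.87 ± 0.21, adjusted p = 0.0017). Mstn, myostatin, was at 0.628 to 1.90 CPM in RSV and 1.18 to 2.40 CPM in DEX libraries and did not pass (adjusted p = 0.20).

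Immediate-early genes were lower in RSV soleus. Of 29 tested, 23 fell and 0 rose, with a median of -0.89, against 20.4% of all genes lower. Without DEX mouse 4, 12 fell and the median was -0.59, and the set-term median was -1.02. Nr4a3 (chr4:48045153-48086447), an orphan receptor induced by contraction and stress, was at 0.602, 0.747, 1.09, 0.727 and 1.04 CPM in RSV and 3.58, 2.14, 9.72 and 9.55 CPM in DEX libraries. All RSV libraries were below all DEX libraries, among which mice 3 and 4 were highest (log2 fold change -2.89 ± 0.38, adjusted p = 1.3e-06, -2.62 without DEX mouse 4, adjusted p = 1.5e-05, and -2.16 with the set term). Klf4, a stress-induced zinc finger factor, was at 8.86, 7.84, 8.77, 8.46 and 12.9 CPM in RSV and 17.8, 18.6, 55.5 and 23.1 CPM in DEX libraries, DEX mouse 3 being the highest (log2 fold change -1.62 ± 0.22, adjusted p = 1.9e-06, and -1.65 with the set term). Klf6, of the same family, was at 23.4 to 33.2 CPM in RSV and 33.7 to 71.8 CPM in DEX libraries (log2 fold change -0.84 ± 0.14, adjusted p = 2.3e-05). Socs3, the feedback inhibitor of cytokine signalling, was at 3.35, 2.501, 3.72, 3.504 and 4.99 CPM in RSV and 4.97, 3.45, 6.12 and 80.8 CPM in DEX libraries, and its call (log2 fold change -2.73 ± 0.51, adjusted p = 0.00013) was lost without DEX mouse 4 (-0.43, adjusted p = 0.27).

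**Figure D3:**
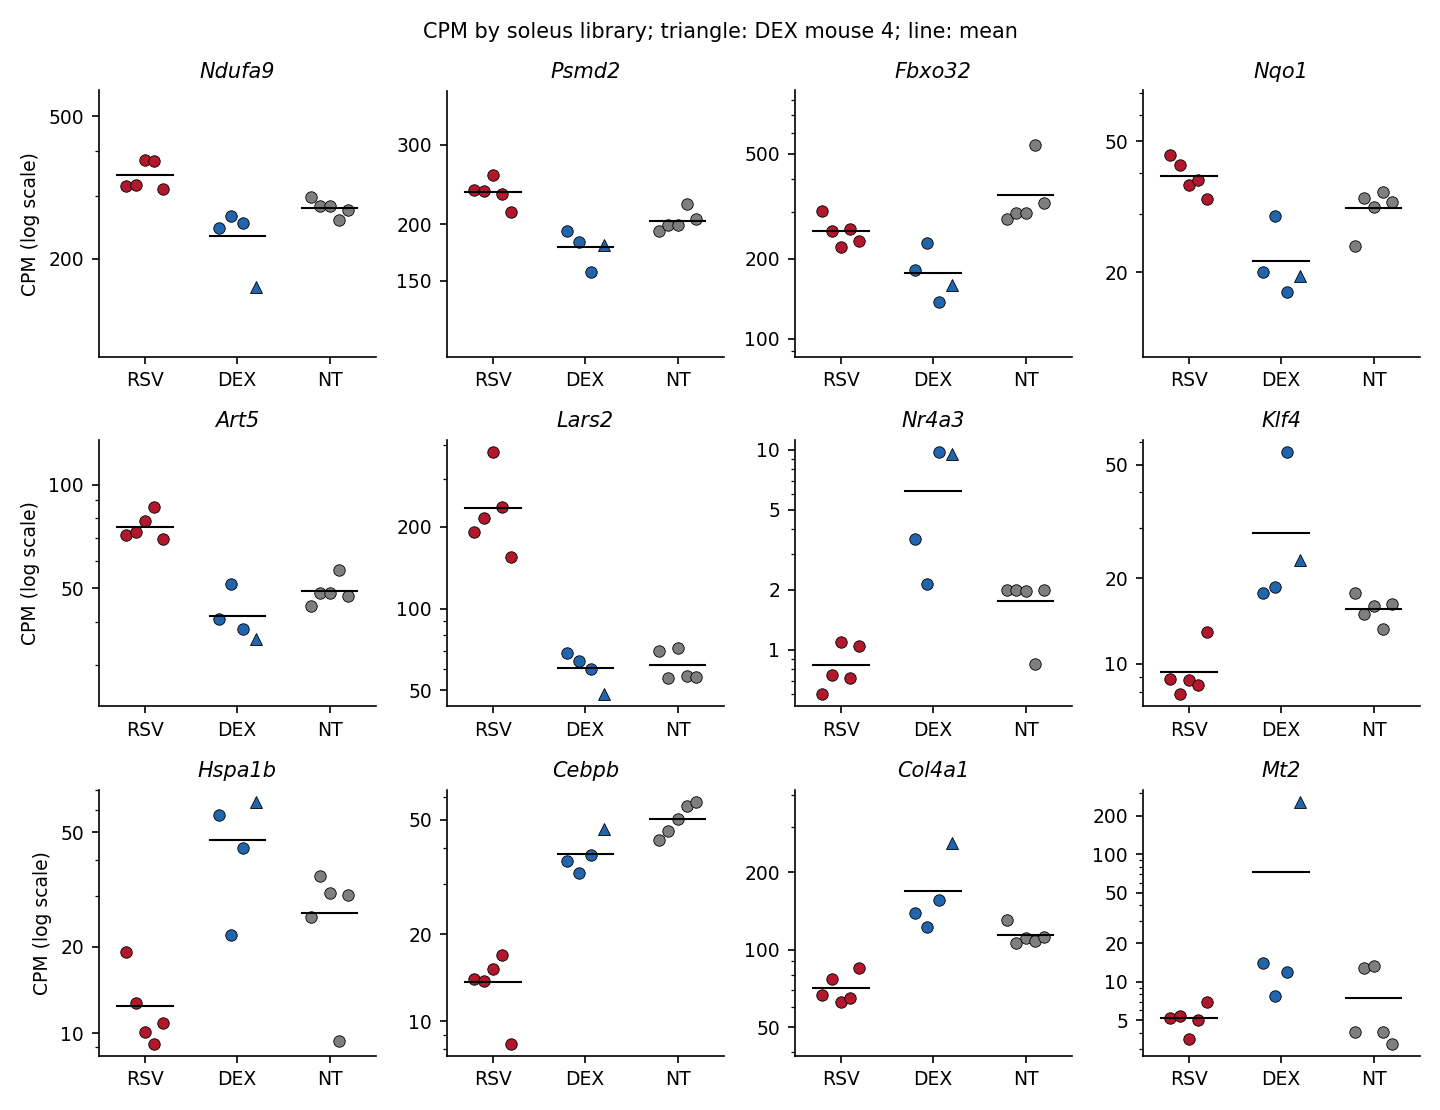
CPM on a log scale of 12 genes in each RSV, DEX and NT soleus library; lines are group means and the triangle is DEX mouse 4. The RSV libraries lie above the DEX libraries for Ndufa9, Psmd2, Nqo1, Art5 and Lars2 and below them for Nr4a3, Klf4, Hspa1b, Cebpb, Col4a1 and Mt2, and for Mt2 the triangle stands at 258 CPM, where the other DEX libraries have 7.73 to 14.02 CPM.

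Heat shock and co-chaperone genes, 28 in all, had 3 rises and 10 falls (median -0.11), against 3 and 5 without DEX mouse 4, and the set-term median was -0.16. The falls included inducible chaperones of the cytosol. Hspa1b (chr17:34956436-34959238), the inducible HSP70, was at 19.2, 12.8, 10.1, 9.22 and 10.9 CPM in RSV and 57.6, 21.9, 44.03 and 64.0 CPM in DEX libraries, without overlap (log2 fold change -1.92 ± 0.30, adjusted p = 1.7e-05, and -1.81 with the set term). Its near copy Hspa1a has 67.64% of its 31-base words, and the sum of both was 58.1, 40.9, 38.1, 36.3 and 41.2 CPM in RSV and 142, 67.4, 118 and 128 CPM in DEX libraries. The sum also fell (log2 fold change -1.41 ± 0.25, adjusted p = 6.6e-05), RSV and DEX libraries not overlapping. Hsp90aa1, inducible HSP90, was at 71.6, 58.4, 59.7, 57.5 and 63.4 CPM in RSV and 117, 92.3, 119.7 and 262 CPM in DEX libraries (log2 fold change -1.25 ± 0.17, adjusted p = 1.4e-06, and -0.82 without DEX mouse 4, adjusted p = 3.5e-06). Of its 31-base words 51.4% recur elsewhere, mostly in Gm12346, and their counts were not summed. Dnaja1, an HSP40 partner of HSP70, was at 29.8, 35.2, 30.4, 35.04 and 32.4 CPM in RSV and 41.6, 40.3, 48.5 and 63.9 CPM in DEX libraries, again apart (log2 fold change -0.58 ± 0.09, adjusted p = 1.0e-05). The risers were Hspa9, Hspb6 and Unc45b. Hspa9, the mitochondrial HSP70, named here after its values were seen, averaged 521 ± 41.4 CPM in RSV and 425 ± 22.3 CPM in DEX libraries (SD, n = 5 and 4), without overlap (log2 fold change 0.29 ± 0.06, edgeR adjusted p = 0.00059). Hspb6, a small heat shock protein, was at 2968 to 3826 CPM in RSV and 2188 to 2736 CPM in DEX libraries (log2 fold change 0.51 ± 0.11, adjusted p = 0.00074). Unc45b, which folds myosin, was at 128 to 154 CPM in RSV and 101.4 to 121 CPM in DEX libraries (log2 fold change 0.31 ± 0.06, adjusted p = 0.00027).

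The promoters of a pair of the genes that fell are printed to show the heat shock element, the site of the factor HSF1. They are the 250 bases before the start (RefSeq, GRCm38.p6, 5′ to 3′ on the gene's strand, minus for Hspa1b and plus for Dnaja1, for which the first of 3 listed starts was taken), with matches to GAANNTTC or its mirror TTCNNGAA in capitals.
Hspa1b, chr17:34959239-34959488: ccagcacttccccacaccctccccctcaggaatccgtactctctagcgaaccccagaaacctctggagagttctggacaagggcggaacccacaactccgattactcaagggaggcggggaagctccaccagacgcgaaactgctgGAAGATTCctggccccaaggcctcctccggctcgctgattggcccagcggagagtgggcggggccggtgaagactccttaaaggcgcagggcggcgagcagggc
Dnaja1, chr4:40722218-40722467: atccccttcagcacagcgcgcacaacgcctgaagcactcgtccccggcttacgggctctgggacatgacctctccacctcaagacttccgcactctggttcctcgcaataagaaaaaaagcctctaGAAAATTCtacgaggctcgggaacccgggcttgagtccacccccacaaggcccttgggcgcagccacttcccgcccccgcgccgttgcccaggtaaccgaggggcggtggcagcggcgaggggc
Each holds 1 match, which begins 104 bases before the start in Hspa1b and 124 in Dnaja1. Among all 32851 windows 12.8% hold the element. Of the listed heat shock genes with a promoter entry it was present in 5 of 9 that fell, 1 of 2 that rose and 4 of 10 that did not pass. A gene counted here if any of its windows, up to 3, held a match, so these counts are not on the scale of the share per window.

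Extracellular matrix genes were mostly lower in RSV soleus. Of 39 collagen and matrix genes 32 fell and 0 rose, with a median of -0.92. Without DEX mouse 4 it was 25 and 0 with -0.78, and the set-term median was -0.43. Col4a1 (chr8:11198423-11312826), a collagen of the basement membrane, was at 66.6, 76.6, 62.4, 64.8 and 85.0 CPM in RSV and 138, 122, 156 and 260.1 CPM in DEX libraries, without overlap (log2 fold change -1.25 ± 0.16, adjusted p = 7.8e-07, and -0.97 without DEX mouse 4, adjusted p = 1.0e-05). Its neighbour and partner chain Col4a2 was at 46.1 to 66.7 CPM in RSV and 97.6 to 191 CPM in DEX libraries (log2 fold change -1.20 ± 0.15, adjusted p = 5.0e-07); exons of both genes overlap on opposite strands. Lamb1, a laminin chain of the same membrane, was at 9.16, 10.5, 7.93, 10.1 and 10.6 CPM in RSV and 21.6, 18.4, 23.2 and 20.03 CPM in DEX libraries, with DEX mouse 4 within its group (log2 fold change -1.10 ± 0.13, adjusted p = 1.9e-07). Other matrix genes leaned on DEX mouse 4. Fn1, fibronectin, was at 19.7, 21.6, 21.6, 23.7 and 33.0 CPM in RSV and 57.0, 37.4, 43.2 and 239 CPM in DEX libraries (log2 fold change -1.98 ± 0.36, adjusted p = 0.00011, and -0.94 without DEX mouse 4, adjusted p = 0.014). Thbs1, which activates TGF-beta, was at 2.02 to 4.47 CPM in RSV and 7.95, 6.14, 13.4 and 45.4 CPM in DEX libraries (log2 fold change -2.58 ± 0.47, adjusted p = 8.7e-05, and -1.59 without DEX mouse 4, adjusted p = 0.0066). Vcan, a proteoglycan of remodelling matrix, was at 1.33 to 2.76 CPM in RSV and 3.24 to 28.8 CPM in DEX libraries (log2 fold change -2.32 ± 0.42, adjusted p = 0.00010, and -1.003 without DEX mouse 4, adjusted p = 0.022). Adamts9, a protease that cuts versican, was at 1.37 to 2.39 CPM in RSV and 3.73, 4.08, 4.34 and 26.8 CPM in DEX libraries (log2 fold change -2.39 ± 0.36, adjusted p = 1.1e-05, and -1.13 without DEX mouse 4, adjusted p = 0.00032).

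Some lists of other cell types had members that were lower. Of 16 endothelial markers 9 fell and 0 rose with and without DEX mouse 4, with medians of -0.47 and -0.40 and a set-term median of -0.27. Their sum was 575 to 846 CPM in RSV and 813 to 1060.3 CPM in DEX libraries. Eng, a TGF-beta co-receptor of vessels, was at 65.8, 59.9, 61.8, 55.6 and 76.3 CPM in RSV and 109, 119.9, 181 and 134 CPM in DEX libraries, without overlap (log2 fold change -1.09 ± 0.12, adjusted p = 7.8e-08, and -0.93 with the set term). Pecam1, the junction protein CD31, was at 60.6 to 89.0 CPM in RSV and 89.97 to 118 CPM in DEX libraries (log2 fold change -0.59 ± 0.10, adjusted p = 2.8e-05). Cdh5, VE-cadherin, was at 62.8 to 98.9 CPM in RSV and 99.2 to 139 CPM in DEX libraries (log2 fold change -0.64 ± 0.12, adjusted p = 0.00016). Of 12 markers of fibro-adipogenic progenitors, the stromal cells that make matrix, 6 fell and 0 rose in both fits, and the set-term median was -0.37. Pdgfra, their defining receptor, was at 6.15, 5.60, 5.14, 6.38 and 6.63 CPM in RSV and 11.04, 11.1, 11.04 and 13.5 CPM in DEX libraries, all lower (log2 fold change -0.96 ± 0.14, adjusted p = 3.8e-06, and -0.84 with the set term). Of 13 tendon markers 5 fell, against 2 without DEX mouse 4, with a median of -0.84 and a set-term median of -0.49. Prg4, the lubricant of tendon and joint surfaces, was at 8.73, 8.14, 7.93, 13.1 and 17.6 CPM in RSV and 86.8, 30.4, 19.3 and 124 CPM in DEX libraries (log2 fold change -2.55 ± 0.49, adjusted p = 0.00015, and -2.03 without DEX mouse 4, adjusted p = 0.0030). How much of these changes goes with the share of non-fibre cells in a sample was not tested.

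Schwann cell and myelin markers fell in 12 of 15 cases, with a median of -1.05, and a set-term median of 0.06. Their sum was 147 to 279 CPM in RSV and 119 to 945 CPM in DEX libraries. Mbp, myelin basic protein, was at 22.6, 41.3, 27.5, 42.8 and 24.2 CPM in RSV and 158, 29.5, 151 and 19.3 CPM in DEX libraries, where mice 1 and 3 were high and mice 2 and 4 inside or below the RSV range (log2 fold change -1.49 ± 0.47, adjusted p = 0.013, with 0.07 under the set term). Without DEX mouse 1 it was -1.07 (adjusted p = 0.091) and without DEX mouse 3 -1.12 (adjusted p = 0.083). Macrophage markers fell in 14 of 16 cases (median -1.35), against 2 of 16 without DEX mouse 4 (median -0.41). Itgam, an integrin of myeloid cells, was at 0.387, 0.373, 0.121, 0.463 and 0.559 CPM in RSV and 0.497, 0.504, 0.891 and 28.1 CPM in DEX libraries (log2 fold change -4.28 ± 0.78, adjusted p = 9.4e-05, and -0.73 without DEX mouse 4, adjusted p = 0.36). All 6 tested MHC class II genes fell, against 0 without DEX mouse 4; Cd74, the invariant chain, was at 5.20, 1.72, 3.23, 3.40 and 4.43 CPM in RSV and 4.52, 3.95, 3.18 and 54.8 CPM in DEX libraries (log2 fold change -2.22 ± 0.65, adjusted p = 0.0075, and -0.11 without DEX mouse 4, adjusted p = 0.91). Of 24 inflammation genes 9 fell and 0 rose, and 3 fell without DEX mouse 4. Ccl2, the monocyte attractant, was at 0.258, 0.299, 0.121, 0.165 and 0.819 CPM in RSV and 0.944, 0.378, 0.697 and 28.97 CPM in DEX libraries (log2 fold change -4.53 ± 0.84, adjusted p = 0.00011, and -0.99 without DEX mouse 4, adjusted p = 0.29). DEX mouse 4 was the highest library for these myeloid and inflammatory genes. C5ar1, a complement receptor of myeloid cells, likewise had 0.364 to 0.856 CPM in RSV and 2.24, 1.05, 1.70 and 17.7 CPM in DEX libraries, though it stayed called without that mouse (-1.48, adjusted p = 0.014). Cd44, a hyaluronan receptor, stayed called too, with 4.33 to 7.37 CPM in RSV and 9.94, 7.98, 9.95 and 99.4 CPM in DEX libraries (-0.83 without DEX mouse 4, adjusted p = 0.0070). Runx1, a factor of myeloid cells and denervated muscle, was at 1.09 to 1.76 CPM in RSV and 2.63, 1.81, 2.09 and 35.2 CPM in DEX libraries and did not stay called (-0.50 without DEX mouse 4, adjusted p = 0.25).

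For the counts that follow, 16.3% of all genes were higher and 20.4% lower. Cholesterol synthesis had 1 rise and 7 falls among 22 genes, with a median of -0.23 and a set-term median of 0.13. Its riser was Fdft1, squalene synthase, at 91.3, 81.4, 88.6, 85.8 and 78.8 CPM in RSV and 52.6, 55.9, 53.01 and 38.6 CPM in DEX libraries (log2 fold change 0.77 ± 0.11, adjusted p = 5.5e-06). Lipid synthesis had 2 rises and 4 falls among 20 genes, and its median of -0.30 also turned sign with the set term, to 0.21. ATF4 and serine synthesis stress genes had 1 rise and 7 falls among 26 (median -0.25, set-term median -0.03), and 0 and 1 without DEX mouse 4. Cytosolic ribosomal proteins had 8 rises and 0 falls among 52 (median 0.12, set-term median -0.04), and interferon-stimulated genes 1 and 1 among 29. Of the other cell type lists, developing fibre markers had 0 rises and 5 falls among 14 genes, against 0 and 1 without DEX mouse 4. Satellite cell markers had 0 rises and 3 falls among 12, pericyte and smooth muscle markers 0 and 1 among 12, adipocyte markers 1 and 1 among 14 (median -0.42, set-term median 0.72), and erythroid markers 0 and 0 among 7. Neutrophil, lymphocyte and mast cell markers each had 1 fall and 0 rises among 3, 3 and 4 tested genes. Pdgfrb, a pericyte receptor, was at 40.7 to 53.01 CPM in RSV and 55.2 to 71.1 CPM in DEX libraries (log2 fold change -0.31 ± 0.08, adjusted p = 0.0026). Muscle fibre markers had 3 rises and 0 falls among 10 genes.

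Lars2 (chr9:123366927-123462666), the mitochondrial leucyl-tRNA synthetase, was named for the size of its rise. It was at 191, 216, 377, 236 and 155 CPM in RSV and 68.6, 64.3, 59.7 and 48.4 CPM in DEX libraries, all higher (log2 fold change 1.96 ± 0.46, adjusted p = 0.0013, and 1.04 ± 0.78 with the set term, adjusted p = 0.68). Its spread was wide across the later set, where the JGT03 and JGT04 libraries had between 78.8 and 744 (median 191) CPM. Art5, an ADP-ribosyltransferase, was at 71.3, 72.8, 78.4, 86.0 and 69.5 CPM in RSV and 40.8, 51.3, 37.99 and 35.7 CPM in DEX libraries (log2 fold change 0.87 ± 0.11, adjusted p = 7.9e-07, and 0.28 with the set term). The set itself was called for Art5 (0.59 ± 0.13, edgeR adjusted p = 0.026). Slc46a3, a lysosomal transporter, was at 11.1, 11.3, 11.1, 11.2 and 10.4 CPM in RSV and 6.71, 6.22, 6.16 and 4.62 CPM in DEX libraries, tightly grouped in RSV (log2 fold change 0.90 ± 0.09, adjusted p = 4.6e-08, and 0.65 with the set term). Ctsf, the lysosomal protease cathepsin F, was at 22.02, 23.1, 26.6, 23.7 and 20.8 CPM in RSV and 13.9, 14.8, 13.7 and 8.79 CPM in DEX libraries (log2 fold change 0.87 ± 0.10, adjusted p = 3.7e-07, and 0.65 with the set term). Aox1, aldehyde oxidase, was at 74.8, 93.6, 94.5, 104.9 and 119 CPM in RSV and 48.2, 63.4, 48.8 and 45.4 CPM in DEX libraries (log2 fold change 0.92 ± 0.14, adjusted p = 1.2e-05). Pik3ip1, an inhibitor of PI3 kinase, was at 40.3 to 60.1 CPM in RSV and 17.7 to 33.4 CPM in DEX libraries (log2 fold change 0.95 ± 0.16, adjusted p = 5.4e-05). Further rises without overlap were those of Tmem53, a membrane protein of the nuclear envelope (log2 fold change 0.96 ± 0.14, adjusted p = 4.0e-06), Adh1, alcohol dehydrogenase (log2 fold change 0.90 ± 0.16, adjusted p = 7.0e-05), Gstt1, a glutathione transferase (log2 fold change 0.86 ± 0.20, adjusted p = 0.0014), and Amigo3, an adhesion protein (log2 fold change 0.96 ± 0.21, adjusted p = 0.00072).

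Set against mice that had no DEX, RSV soleus differed at 5585 of 14696 genes, 38%, with 2799 higher (19%) and 2786 lower (19%); with the set term it was 551 higher (3.75%) and 524 lower (3.57%), 7.31% together. RSV and NT libraries did not overlap for 3909 genes, 26.6%. These groups differ in DEX, resveratrol, vehicle and set, which cannot be told apart here. Lcn2, lipocalin-2, an acute phase protein, was at 22.9, 22.8, 21.6, 23.2 and 29.9 CPM in RSV and 1.08, 1.87, 1.40, 0.739 and 0.486 CPM in NT libraries (log2 fold change 4.43 ± 0.29, adjusted p = 4.1e-14, and 4.25 ± 0.47 with the set term, adjusted p = 3.9e-07), with DEX libraries at 19.5 to 52.9 CPM. Pnmt, which makes adrenaline from noradrenaline, was at 7.10, 8.62, 11.8, 9.69 and 8.68 CPM in RSV and 1.08, 0.686, 1.15, 0.813 and 0.823 CPM in NT libraries (log2 fold change 3.32 ± 0.21, adjusted p = 1.4e-14). Per2 was at 14.4 to 22.5 CPM in RSV and 2.56 to 4.17 CPM in NT libraries (log2 fold change 2.39 ± 0.13, adjusted p = 6.3e-16, and 2.42 ± 0.24 with the set term, adjusted p = 4.4e-08). Arntl was at 2.02, 1.98, 1.66, 1.79 and 1.38 CPM in RSV and 24.98, 20.1, 20.2, 19.1 and 24.4 CPM in NT libraries, far below (log2 fold change -3.62 ± 0.18, adjusted p = 1.1e-17, and -2.98 ± 0.32 with the set term, adjusted p = 2.8e-07). Lep, the adipocyte hormone leptin, was at 18.8, 22.9, 4.12, 7.07 and 11.6 CPM in RSV and 0.168, 1.41, 1.44, 3.44 and 0.973 CPM in NT libraries (log2 fold change 3.13 ± 0.74, adjusted p = 0.0010). Klk1b26, a kallikrein with 28.32% of its words in related genes, was at 8.29 to 10.6 CPM in RSV and 0.702 to 1.82 CPM in NT libraries (log2 fold change 2.98 ± 0.20, adjusted p = 7.5e-14). None of these 6 genes except Arntl passed between RSV and DEX.

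For comparison, DEX against NT, which shares both the DEX and the NT libraries with the comparisons above, called 6353 genes (43.2%). Of these, 3534 were higher (24%) and 2819 lower (19.2%). There 24 of 35 fatty acid use genes fell and 3 rose, and 21 of 29 immediate-early genes rose and 0 fell. Of 22 atrophy and ubiquitin ligase genes 14 fell and 3 rose with DEX (median -0.28). RSV against NT had 10 falls and 3 rises in the fatty acid list, and 2 rises and 5 falls in the immediate-early list. With the set term the fatty acid list had 2 rises and 0 falls against NT and the immediate-early list 1 and 0. All genes had 19% in each direction without that term and 3.75% higher and 3.57% lower with it.

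The atrophy list against NT had 3 rises and 10 falls among 22 genes (median -0.14). Fbxo32 was at 221 to 303 CPM in RSV and 283, 297, 299, 540.0 and 325 CPM in NT libraries, where all but RSV mouse 1 lay below them (log2 fold change -0.45 ± 0.13, adjusted p = 0.0047), and without NT mouse 4, the highest, the value was -0.24 (adjusted p = 0.063). Trim63 was at 83.8 to 109 CPM in RSV and 134, 130.0, 122, 161 and 137 CPM in NT libraries, without overlap (log2 fold change -0.49 ± 0.09, adjusted p = 4.4e-05, and -0.57 ± 0.17 with the set term, adjusted p = 0.030). Pdk4 was at 181, 69.7, 72.9, 96.5 and 70.3 CPM in RSV and 197, 474, 480.0, 956 and 790.3 CPM in NT libraries (log2 fold change -2.56 ± 0.37, adjusted p = 1.5e-06). Klf15 was at 19.4 to 24.9 CPM in RSV and 28.8 to 32.3 CPM in NT libraries (log2 fold change -0.43 ± 0.11, adjusted p = 0.0018). Ppargc1a was at 15.8 to 20.5 CPM in RSV and 25.4 to 35.2 CPM in NT libraries (log2 fold change -0.69 ± 0.15, adjusted p = 0.00054); all were lower in RSV. Myh2 was at 4298 to 6514 CPM in RSV and 7417 to 8702 CPM in NT libraries (log2 fold change -0.58 ± 0.14, adjusted p = 0.0010). MHC class II genes were low in RSV: H2-Aa was at 1.38, 0.560, 1.09, 0.926 and 1.601 CPM in RSV and 4.24, 12.1, 13.3, 6.39 and 5.54 CPM in NT libraries (log2 fold change -2.90 ± 0.63, adjusted p = 0.00039), and 4 of 6 tested fell. Cytosolic ribosomal proteins rose in 52 of 52 cases (median 0.51), of which 2 passed with the set term. Oxidative phosphorylation genes had 29 rises and 3 falls against NT, and 0 and 0 with the set term. Ndufa9 was at 313 to 377 CPM in RSV and 257 to 298 CPM in NT libraries (log2 fold change 0.30 ± 0.10, adjusted p = 0.017), with -0.02 under the set term and 0.26 without RSV mouse 3 or without RSV mouse 4 (adjusted p = 0.053 and 0.051).

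By the labels and the listed order, the soleus of mice given JGT03 or JGT04 shares DEX, the cellulose vehicle and the later set with that of RSV mice. Between them 32 of 14696 genes differed (0.218%), 11 higher (0.0749%) and 21 lower (0.143%), and 0 in each direction by edgeR without RSV mouse 3 or without RSV mouse 4 (1567 and 1739 genes at an unadjusted p under 0.05). RSV lay wholly outside the range of the 19 extract libraries for 8 genes (0.0544%). In this comparison DESeq2 called 78 higher and 148 lower. Members passed in 4 of the 42 lists, mitochondrially encoded genes with 3 rises among 15, tendon markers with 3 falls among 13, and collagen and matrix genes and fibro-adipogenic progenitor markers with 1 fall each. The panel of treatment genes overlapped: Fbxo32 was at 221 to 303 CPM in RSV libraries and between 173 and 269 (median 222) CPM in extract libraries (log2 fold change 0.18 ± 0.10, adjusted p = 0.36). Sirt1 was at 8.25 to 11.1 CPM in RSV and between 8.75 and 12.7 (median 10.7) CPM in extract libraries (log2 fold change -0.13 ± 0.08, adjusted p = 0.41). Nqo1 was at 33.3 to 45.4 CPM in RSV and between 26.4 and 40.98 (median 36.1) CPM in extract libraries (log2 fold change 0.18 ± 0.10, adjusted p = 0.39). Cebpb, Nr4a3 and Hspa1b did not pass either, with adjusted p = 0.61, 0.16 and 0.25.

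A few tendon and stromal genes were called lower in RSV than in extract libraries, 3 of 13 tendon, 1 of 12 fibro-adipogenic progenitor and 1 of 39 collagen and matrix genes. Each of these calls was lost without RSV mouse 3 or without RSV mouse 4. Tnmd, tenomodulin, was at 1.12, 1.38, 1.496, 1.79 and 1.56 CPM in RSV libraries and between 1.36 and 8.36 (median 3.52) CPM in extract libraries (log2 fold change -1.36 ± 0.29, adjusted p = 0.034). Chad, chondroadherin of tendon and cartilage, was at 1.46, 3.02, 2.47, 2.51 and 4.02 CPM in RSV libraries and between 2.82 and 43.1 (median 8.83) CPM in extract libraries (log2 fold change -1.99 ± 0.43, adjusted p = 0.037). Kera, the proteoglycan keratocan, was at 0.172 to 0.364 CPM in RSV libraries and between 0.201 and 2.27 (median 0.674) CPM in extract libraries (log2 fold change -1.42 ± 0.30, adjusted p = 0.029). Mmp2, a gelatinase, was at 10.2, 11.01, 9.70, 12.2 and 11.4 CPM in RSV libraries and between 12.2 and 30.2 (median 18.1) CPM in extract libraries (log2 fold change -0.74 ± 0.14, adjusted p = 0.015). Pdgfra was at 5.14 to 6.63 CPM in RSV libraries and between 6.36 and 10.3 (median 8.41) CPM in extract libraries (log2 fold change -0.47 ± 0.11, adjusted p = 0.047). For these 5 genes the RSV range began below every extract library and its upper end reached into or up to the extract range. Itgbl1, an integrin-like matrix protein, was below every extract library at 2.75 to 3.61 CPM in RSV and between 3.82 and 11.9 (median 4.68) CPM in extract libraries (log2 fold change -0.78 ± 0.18, adjusted p = 0.048). Antxr1, a collagen receptor, was at 6.96 to 8.43 CPM in RSV libraries and between 8.52 and 14.8 (median 9.94) CPM in extract libraries (log2 fold change -0.40 ± 0.09, adjusted p = 0.049). Rfxank, a factor of MHC class II transcription, was above every extract library at 9.37 to 10.5 CPM in RSV and between 7.48 and 9.33 (median 8.25) CPM in extract libraries (log2 fold change 0.28 ± 0.06, adjusted p = 0.024), and Art5 was higher as well (log2 fold change 0.35 ± 0.08, adjusted p = 0.043).

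The 3 mitochondrially encoded genes that passed against the extracts did not pass once their nuclear copies were counted with them. mt-Co3, mt-Atp6 and mt-Co2, subunits of cytochrome oxidase and ATP synthase, have 99.87%, 99.54% and 100% of their 31-base words in other genes too, nearly all in a nuclear copy, among which RSEM divides reads. mt-Co3 alone was at 10743, 25922, 32117, 33597 and 26485 CPM in RSV and 12700.5, 13647, 13478 and 8600.2 CPM in DEX libraries, with RSV mouse 1 at the DEX level and mice 2 to 5 above it. Its copy Gm28437 was at 29683, 21840.2, 19651, 17757 and 24126 CPM in RSV and 21934, 31502, 34958 and 26969 CPM in DEX libraries, lowest where the gene was highest. The sum was 40425, 47768, 51767, 51351 and 50603 CPM in RSV, 34634, 45157, 48428 and 35568 CPM in DEX and between 29578 and 60717 (median 41603) CPM in extract libraries. Against the extracts mt-Co3 had log2 fold change 1.09 ± 0.18, adjusted p = 0.0096 alone and 0.17 (adjusted p = 0.39) summed, mt-Atp6 0.92 (adjusted p = 0.0096) alone and 0.12 (adjusted p = 0.57) summed, and mt-Co2 0.71 (adjusted p = 0.047) alone and 0.15 (adjusted p = 0.43) summed. Against DEX the sums were at 0.24 (adjusted p = 0.15) for mt-Co3, 0.12 (adjusted p = 0.51) for mt-Atp6 and 0.26 (adjusted p = 0.12) for mt-Co2. The larger mitochondrial transcript mt-Co1, at 60991 to 74589.5 CPM in RSV and between 57249 and 76955 (median 64944) CPM in extract libraries, had log2 fold change 0.06 ± 0.07, adjusted p = 0.72. Of its words 63.9% recur elsewhere too, 45.2% in Gm13340. mt-Nd1, with 0% of its words shared, had log2 fold change 0.10 against the extracts (edgeR adjusted p = 0.58).

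**Figure D4:**
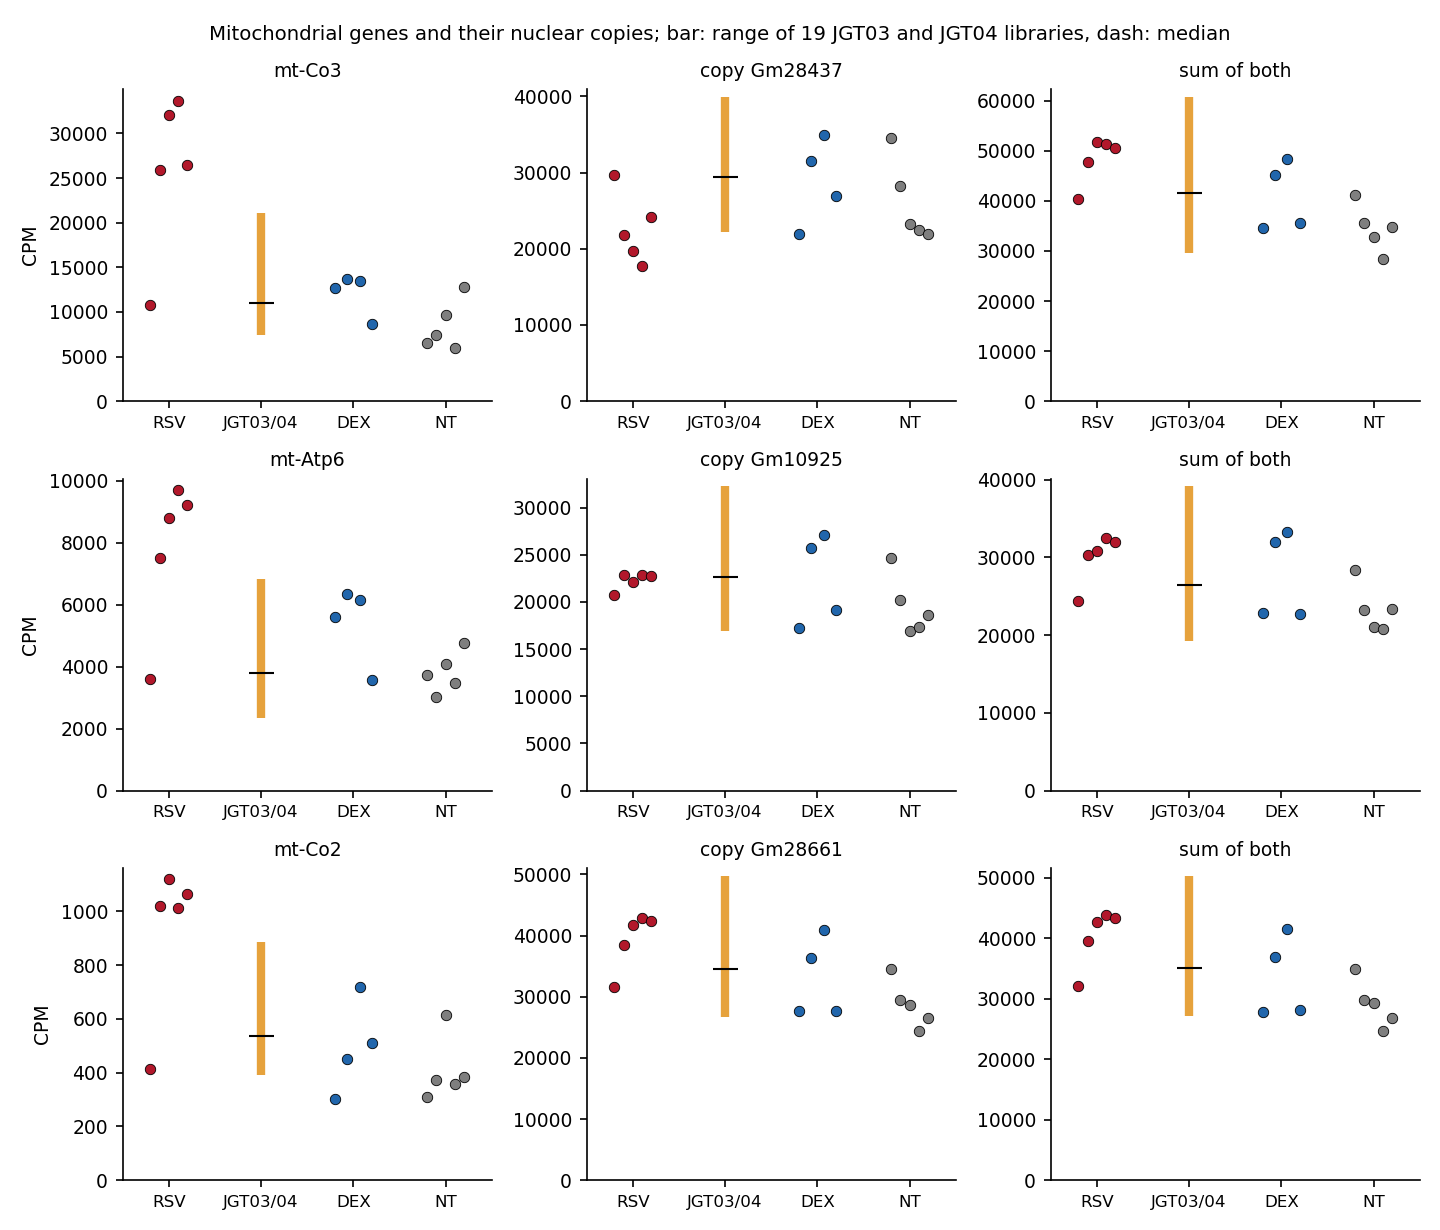
CPM of mt-Co3, mt-Atp6 and mt-Co2 (left), of the nuclear copy of each (middle) and of their sum (right) in RSV, DEX and NT soleus libraries (points) and in 19 JGT03 and JGT04 libraries (bar for the range, dash for the median). RSV mice 2 to 5 stand above RSV mouse 1 for the genes and below it for the copy of mt-Co3, and the sums lie within the range of the extract libraries.

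The same 9 libraries were set beside gastrocnemius (GA), a mixed muscle with mostly fast fibres, from mice of the same treatments, 5 RSV and 4 DEX libraries. The change with RSV differed between the muscles, soleus minus GA, for 3094 of 15142 genes (20.4%), 1649 more positive (10.9%) and 1445 more negative (9.54%) in soleus. Without soleus DEX mouse 4 it was 1018 and 826, and without soleus RSV mouse 3 1061 were more positive. In GA itself RSV against DEX called 653 genes (4.31%), 320 higher (2.11%) and 333 lower (2.2%). With the set term, which also divides GA libraries, 1 gene passed, Skil, a repressor of TGF-beta signalling, named here after its value was seen. Skil was at 7.59, 8.68, 8.50, 8.41 and 10.1 CPM in RSV and 8.25, 9.21, 14.1 and 10.6 CPM in DEX soleus, and at 17.4, 17.1, 14.9, 17.9 and 15.3 CPM in RSV and 11.2, 8.37, 9.004 and 10.4 CPM in DEX GA. It was higher in every RSV library of GA and overlapped in soleus (difference -1.05 ± 0.15, adjusted p = 6.4e-06).

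Cebpb differed in opposite directions between RSV and DEX libraries of the muscles. In both muscles the DEX libraries belong to an earlier listed set than the RSV libraries. With the set term the Cebpb difference between the muscles did not pass. Scaled over both muscles it was at 13.7, 13.4, 14.8, 16.3 and 7.98 CPM in RSV and 34.2, 31.02, 35.6 and 43.0 CPM in DEX soleus, and at 29.2, 28.6, 23.4, 30.7 and 20.9 CPM in RSV and 12.4, 13.4, 12.5 and 10.3 CPM in DEX GA. No library overlapped in either muscle, and the interaction passed (difference -2.57 ± 0.28, adjusted p = 2.8e-09; GA 1.13, adjusted p = 0.00014). Lars2 was at 187, 211, 369, 228 and 148 CPM in RSV and 65.5, 61.2, 56.4 and 44.9 CPM in DEX soleus, and at 77.0, 70.5, 56.8, 52.6 and 76.3 CPM in RSV and 77.4, 63.2, 81.9 and 126 CPM in DEX GA, a rise in soleus beside overlapping values in GA (difference 2.39 ± 0.50, adjusted p = 0.00054). Mettl21c, a muscle methyltransferase, was at 192, 187, 132, 152 and 139.9 CPM in RSV and 126, 131, 47.1 and 42.4 CPM in DEX soleus, and at 33.3, 40.7, 41.8, 53.3 and 40.4 CPM in RSV and 61.3, 48.3, 54.5 and 103 CPM in DEX GA (difference 1.57 ± 0.36, adjusted p = 0.0013). Sirt1 had -0.39 in soleus and 0.16 in GA (difference -0.51 ± 0.12, adjusted p = 0.0027), and Nqo1 0.86 and 0.21 (difference 0.69 ± 0.17, adjusted p = 0.0030). Ndufa9 had 0.56 in soleus and -0.05 in GA (difference 0.64 ± 0.13, adjusted p = 0.00040), Psmd2 0.40 and 0.11 (difference 0.33 ± 0.08, adjusted p = 0.0038), and Gys1 0.56 and 0.02 (difference 0.57 ± 0.14, adjusted p = 0.0020). Of the oxidative phosphorylation list 31 of 62 were more positive in soleus and 0 more negative, and of the immediate-early list 0 and 15 of the tested members. Prg4 differed (difference -2.26 ± 0.55, adjusted p = 0.0024), while Nr4a3, which was lower with RSV in GA as well (-2.42, adjusted p = 1.5e-06), Hspa1b and Fbxo32 did not pass, with interaction adjusted p = 0.60, 0.20 and 0.53.

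**Figure D5:**
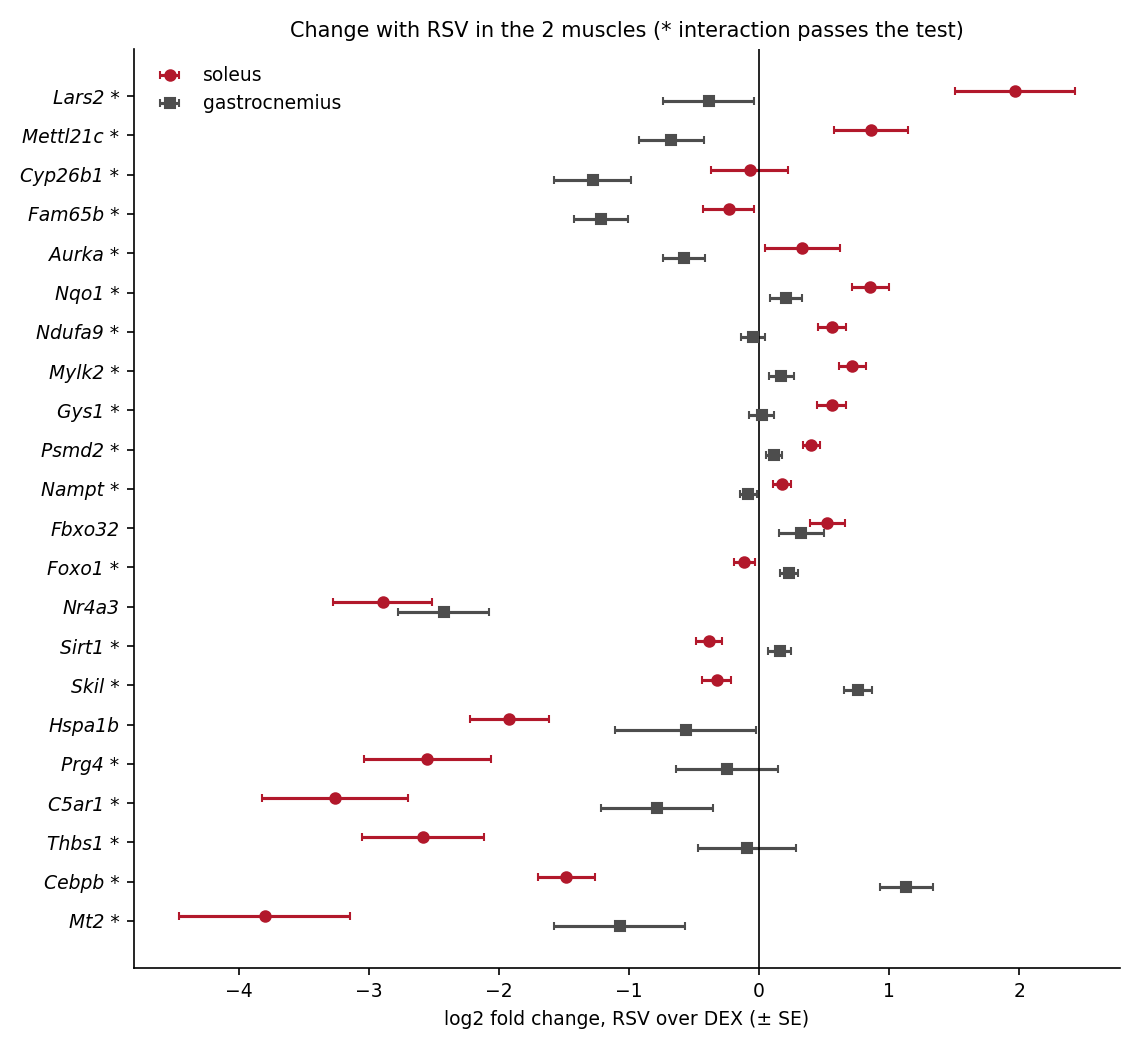
Log2 fold change of RSV over DEX with its standard error in soleus (circles) and GA (squares) for 22 genes, ordered by the difference between the muscles; an asterisk marks genes whose difference passed the test. Cebpb is at -1.48 in soleus and 1.13 in GA, and Nr4a3 is lower in both, at -2.89 and -2.42.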

How the data were processed

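The deposited table holds expected counts of 42807 genes in 86 libraries, deposited by the authors. Per the submitters' processing notes, RSEM 1.3.3 and STAR 2.7.3a were used with GRCm38, beside Trim Galore 0.6.5 and FastQC 0.11.9. RSEM divides reads that match several genes. The kit kept strand, per the labels, but whether counting used it is not given in the sources used here. Of all values 92.0% were whole, and 13515 genes had no count. Expected counts were rounded. Library totals in the groups compared were 18.8 to 31.7 M counts, the 10 highest genes took 26.4% to 33.0% of each, and the biological coefficient of variation was 13.7%.

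The soleus fit took 41 libraries in 9 groups, leaving out the libraries listed as S3-5 and S4-1, and 14696 genes passed filterByExpr; the fit of both muscles, which also left out G3-1, took 83 libraries and 15142 genes. Libraries were scaled by TMM and tested by quasi-likelihood with edgeR 4.0.16 under R 4.3.3, with limma 3.58.1 loaded beside it and DESeq2 1.42.0 as an alternative. The set term adds the listed set of each library. P values were adjusted by Benjamini-Hochberg over all genes tested, with a threshold of 0.05. Nothing in the labels says more than that each library is a mouse of its group, so the spread is that between these samples. The scripts were tested on simulated counts. Positions and shared 31-base words come from the GENCODE annotation of GRCm38 and promoter windows from RefSeq on GRCm38.p6 (Python 3.11.15, pandas 2.3.3). Of 159 genes looked up, 23 share over 10% of these words with other genes, and their reads may be split. Among them are Itgam (68.1%), Hsp90aa1 (51.4%), Ctsd (33.2%) and Hadhb (23.3%), so the genes remarked on above are not all of them.

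The members and the gene lists were chosen with earlier results of these data known. Genes named were the largest rises and falls with a mean of at least 5 CPM and no overlap (15 a direction for RSV against DEX, 5 for the other comparisons), a panel of 21 genes, and up to 3 members a direction of each list. The text takes a part of this pool, chosen after values were seen, and a few of its genes are not reported here. Alternatives were another scaling, no filter, DESeq2, robust fitting, the groups compared alone, all libraries, a replicate block, the set term, each library left out in turn and, chosen after seeing the data, gene copies summed.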

Additional observations from a re-analysis of the deposited data

Results flagged for a closer look

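For 154 genes examined singly the highest and lowest library of RSV, DEX and NT soleus were compared with the others of their group, and 59 of 462 groups held a library that stood apart by Dixon's ratio. For independent, normally distributed values chance alone flags about 1 in 20 groups. Many of these genes were named from the same values and move together, so the counts are not tested against that rate. The flagged groups were 14 of RSV, 28 of DEX and 17 of NT, and DEX mouse 4 was the highest library in 21 and the lowest in 3 of them.

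RSV mouse 1 was the highest of its group for Pdk4 (181 CPM) and Strada (12.8 CPM). RSV mouse 1 was the lowest of its group for mt-Co2 (414 CPM) and mt-Nd2 (12244 CPM). RSV mouse 5 was the highest of its group for Adh1 (19.9 CPM), Ahr (8.86 CPM), Ccl2 (0.819 CPM), Cd44 (7.37 CPM), Klf4 (12.9 CPM), Klf6 (33.2 CPM) and Lcn2 (29.9 CPM). RSV mouse 5 was the lowest of its group for Nmnat3 (9.57 CPM), Slc46a3 (10.4 CPM) and Tsc22d3 (39.9 CPM).

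DEX mouse 1 was the highest of its group for Chrna1 (39.3 CPM) and Ctsd (470.5 CPM). DEX mouse 2 was the highest of its group for Amigo3 (4.54 CPM). DEX mouse 3 was the highest of its group for Klf4 (55.5 CPM). DEX mouse 4 was the highest of its group for Adamts9 (26.8 CPM), C5ar1 (17.7 CPM), Ccl2 (28.97 CPM), Cd44 (99.4 CPM), Cd74 (54.8 CPM), Col4a2 (191 CPM), Fn1 (239 CPM), H2-Aa (17.4 CPM), H2-Ab1 (24.4 CPM), Hmox1 (21.3 CPM), Hsp90aa1 (262 CPM), Itgam (28.1 CPM), Lcn2 (52.9 CPM), Mt1 (313 CPM), Mt2 (258 CPM), Nmrk2 (195 CPM), Pdgfra (13.5 CPM), Prkaa1 (26.3 CPM), Runx1 (35.2 CPM), Socs3 (80.8 CPM) and Vcan (28.8 CPM). DEX mouse 4 was the lowest of its group for Prdx3 (114 CPM), Ubr2 (50.6 CPM) and Unc45b (101.4 CPM).

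NT mouse 1 was the highest of its group for Col4a1 (130.0 CPM), Col4a2 (96.3 CPM), Myh4 (1126 CPM) and mt-Cytb (28744 CPM). NT mouse 3 was the highest of its group for mt-Co2 (616 CPM). NT mouse 4 was the highest of its group for Aox1 (89.1 CPM), Fbxo31 (191 CPM), Fbxo32 (540.0 CPM), Fdft1 (81.6 CPM), Kera (4.99 CPM), Pik3ip1 (42.5 CPM), Tef (176 CPM) and Tsc22d3 (61.1 CPM). NT mouse 4 was the lowest of its group for Nr4a3 (0.850 CPM) and Sdhc (297 CPM). NT mouse 5 was the highest of its group for mt-Rnr1 (1909.5 CPM). NT mouse 5 was the lowest of its group for Pdgfrb (44.4 CPM).

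The change with RSV, on the log2 scale, differed between soleus and GA by the interaction test for 19 genes examined. It was more negative in soleus for Mt2 (-2.68), Cebpb (-2.57), Thbs1 (-2.45), C5ar1 (-2.42), Prg4 (-2.26), Skil (-1.05), Sirt1 (-0.51) and Foxo1 (-0.31). It was more positive in soleus for Lars2 (2.39), Mettl21c (1.57), Cyp26b1 (1.24), Fam65b (1.02), Aurka (0.94), Nqo1 (0.69), Ndufa9 (0.64), Mylk2 (0.58), Gys1 (0.57), Psmd2 (0.33) and Nampt (0.30). Among them Mt2, Thbs1 and C5ar1 are genes for which soleus DEX mouse 4 was far above the other DEX libraries, and without it their differences were 0.00087, -1.47 and -0.66 (adjusted p = 1.00, 0.054 and 0.41). Single omissions also lost the call of Cyp26b1 (4 times), Aurka (3), Nampt (3), Foxo1 (2) and Fam65b (1). Cyp26b1 averaged 9.07 CPM in RSV and 9.37 CPM in DEX soleus, and 4.05 and 9.87 CPM in GA. Fam65b averaged 2.03 and 2.32 CPM in soleus and 2.18 and 5.07 CPM in GA, and Aurka 0.762 and 0.582 CPM and 3.87 and 5.78 CPM. With the set term the difference passed for Skil.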

How the results depend on the processing

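Counts for RSV against DEX were 951 higher and 1365 lower with the 9 libraries alone, 757 and 1119 with the libraries that stood apart included, and 1 and 1 (Actg2 4.16, Gpr56) with the set term. Leaving out each library in turn gave 1586 to 2550 higher and 1914 to 3188 lower, the lowest of both without DEX mouse 4. Against NT they were 1514 and 1523 with all libraries and 551 and 524 with the set term. Against the extracts they were 78 and 148 by DESeq2, 32 lower with DESeq2 size factors, 24 and 38 with the groups compared alone, 0 and 0 by edgeR with all libraries (1051 genes at an unadjusted p under 0.05), and 17 higher with the set term. Summing gene copies, chosen after seeing the data, left 6 higher. Leaving out each library gave 0 to 22 higher and 0 to 56 lower. A count moved by over 1.5 times without RSV mouse 1, 3, 4 or 5, JGT03 100 mg/kg mouse 1, 2 or 4, JGT03 400 mg/kg mouse 2, 3 or 5, JGT04 100 mg/kg mouse 2, or JGT04 400 mg/kg mouse 3. Without RSV mouse 5, 3 were higher, mt-Atp6 (0.85), mt-Co3 (1.08) and Rnf114 (0.25). The soleus minus GA counts were 535 and 388 with the groups compared alone, 152 and 232 with all libraries, 0 and 1 (Skil) by edgeR with the set term (903 genes at an unadjusted p under 0.05; DESeq2 without that term called 1592 and 1540), and 1018 to 1954 and 826 to 1841 leaving out each library. The cause of these shifts was not tested.

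Among genes that passed with or without the set term, the sign turned with it for Igf1 (0.22), Mbp (0.0686), Prkag1 (-0.0516), Cyp1b1 (0.15), Actg2 (4.16), Chrna1 (-0.0244) and, against NT, Ndufa9 (-0.0205). The soleus minus GA difference of Mt2 was -3.07 to 0.00087 leaving out each library, the last without soleus DEX mouse 4. The cause was not tested.

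RSV and DEX mice are different animals, and the deviations of their soleus libraries with the same number correlated at 0.17, -0.02, 0.01 and -0.07. Whether equal numbers in soleus and GA mark the same mouse is not stated in the labels. The deviations of soleus and GA libraries with the same number correlated at 0.06, 0.02, -0.10, 0.01 and -0.09 in RSV. In DEX they correlated at 0.18, -0.20, -0.12 and 0.02. The main fit of both muscles used no pairing. With the number as a replicate block, RSV against DEX called 2265 and 2810, soleus minus GA 1471 and 1084, and the extracts 5 (C2cd5 0.30, mt-Atp6 0.91, mt-Co3 1.06, Rfxank 0.28 and RP23-346B12.4 0.65) and 8. Of 123 genes examined singly in RSV against DEX, 123 passed or failed as in the main fit under DESeq2 and 122 with the block. The call was lost by 18 with the groups compared alone, 40 with all libraries and 103 with the set term. Under the set term 14 passed or failed as before, among which only Gpr56 passed, and 6 turned sign. Direction was compared only for genes that passed in either fit.

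The totals limit genes under about 1 CPM, where a library holds few reads. Precision is set by 5 and 4 mice, and vehicle and listed set differ between RSV and DEX. In addition, 1 DEX library, mouse 4, carries the myeloid genes and stood apart in other gene lists too.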
